A study of Mus musculus with 4 samples.

Results

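The 10 genes described here write, read or erase DNA methylation, and they were located in the chromatin accessibility and H2A.Z peak lists of mouse liver. They are Uhrf1, Uhrf2, Dnmt1, Dnmt3a, Dnmt3b, Dnmt3l, Tet1, Tet2, Tet3 and Hells, which are 10 of the 21938 protein-coding genes of GENCODE vM21 on chromosomes 1 to 19, X and Y. They were named as a list by their function, with earlier results of these data known, and each gene was described with all peaks over its body and up to 5 kb from its transcription start site (TSS, the 5′ end of the gene). The livers came from a WT male, which was Uhrf1 fl/fl, and a Uhrf1hepKO male, which was Uhrf1 fl/fl;Alb:Cre. Both were C57Bl/6 mice of 8 to 12 weeks on a normal diet, and the floxed Uhrf1 alleles were carried by the control too. In the knockout, Cre is driven by the albumin promoter, so its deletion is directed at hepatocytes and not at the whole organ. ATACseq, in which a transposase cuts open DNA, and ChIPseq of the histone variant H2A.Z on nucleosomes released by micrococcal nuclease were done on the same 2 livers. That gave 4 libraries with 1 library per condition, so no difference between the livers has a replicate check and no p-value is given.

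DNA methylation is copied after replication by DNMT1, which is brought to newly made DNA by UHRF1, a protein that binds CpGs methylated on a single strand. UHRF2 is its paralog, and HELLS is a chromatin remodeler of the SNF2 family that is needed for normal methylation of repeats. DNMT3A and DNMT3B methylate DNA that had no methylation before, and DNMT3L is a cofactor without catalytic activity of its own that acts mainly in germ cells. TET1, TET2 and TET3 oxidize 5-methylcytosine, which starts its removal. In the adult liver most hepatocytes do not divide. H2A.Z is usually found in nucleosomes beside active or poised promoters, and promoters rich in CpGs are usually unmethylated.

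The 4 lists held 10582 WT and 10764 Uhrf1hepKO ATACseq peaks, and 51450 WT and 47135 Uhrf1hepKO H2A.Z peaks. Each peak has a fold, the reads over it relative to the local background, with a median of 4.31 and 4.05 for ATACseq and of 5.12 and 5.35 for H2A.Z, in WT and Uhrf1hepKO respectively. Folds are not scaled between libraries, so each is given with its percentile, its rank by fold in its own list. Peaks with an equal fold share the average of their ranks. Peak lists give no transcript level, and they do not show whether the floxed part of Uhrf1 was lost. Of 8 hepatocyte markers, 0 had an ATACseq peak near the TSS (within 5 kb) in WT and 2 had one in Uhrf1hepKO. The shares of all protein-coding genes were 30.2% and 27.9%. An H2A.Z peak was called for 1 marker in each liver, beside 52.8% and 51.0% of all genes. It was not the same gene, namely Ttr in WT and Cebpa in Uhrf1hepKO. For Alb, which encodes albumin, the Uhrf1hepKO ATACseq peak had a fold of 4.18 and no WT peak was called. Markers of Kupffer cells (5 genes), endothelial cells (5) and lymphocytes (4) had 0 such peaks in all 4 lists. Of 5 stellate cell markers, Col1a1 had an ATACseq peak in each liver and Dcn an H2A.Z peak in WT, and of 5 cholangiocyte markers 1 had a WT ATACseq peak, 0 a Uhrf1hepKO ATACseq peak and 2 an H2A.Z peak in each liver. Over all 32 markers, 2 (WT) and 3 (Uhrf1hepKO) had an ATACseq peak and 4 and 3 an H2A.Z peak near the TSS. These shares were below those of all genes for each list. Hepatocyte markers such as Apoa1 and Cps1 had no such peak in any list, so a missing peak does not show a silent gene. The part of cell composition in the values below was not tested. In bulk liver, fewer cells with a peak and fewer reads per cell cannot be told apart.

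The sequences under the accessible sites at the starts of Uhrf1, Uhrf2, Dnmt1 and Hells are shown first, since these are the only members with an ATACseq peak at a RefSeq start. Each is written 5′ to 3′ in the direction of the gene from the RefSeq FASTA of GRCm38. The stretches of Uhrf2 and Hells end before the 5′ end of the gene. Those of Uhrf1 and Dnmt1 lie inside the gene and end before the RefSeq starts at +992 and +6909 bp. Capitals mark the bases covered by the ATACseq peaks of both livers, and for Hells those covered in Uhrf1hepKO, where alone a peak was called.
Uhrf1, chr17:56304063-56304312, plus strand: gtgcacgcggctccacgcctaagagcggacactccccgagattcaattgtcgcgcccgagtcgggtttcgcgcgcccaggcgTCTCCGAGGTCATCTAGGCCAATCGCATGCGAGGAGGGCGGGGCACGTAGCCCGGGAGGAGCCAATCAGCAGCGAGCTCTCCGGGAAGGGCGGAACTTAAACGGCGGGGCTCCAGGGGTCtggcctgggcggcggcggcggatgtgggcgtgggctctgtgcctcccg
Uhrf2, chr19:30030263-30030512, plus strand: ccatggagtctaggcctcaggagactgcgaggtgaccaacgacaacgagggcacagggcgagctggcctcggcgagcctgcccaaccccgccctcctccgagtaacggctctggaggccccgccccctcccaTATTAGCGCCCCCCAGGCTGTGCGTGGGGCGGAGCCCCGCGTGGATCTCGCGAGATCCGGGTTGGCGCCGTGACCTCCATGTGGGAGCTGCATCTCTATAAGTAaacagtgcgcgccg
Dnmt1, chr9:20952980-20953190, minus strand: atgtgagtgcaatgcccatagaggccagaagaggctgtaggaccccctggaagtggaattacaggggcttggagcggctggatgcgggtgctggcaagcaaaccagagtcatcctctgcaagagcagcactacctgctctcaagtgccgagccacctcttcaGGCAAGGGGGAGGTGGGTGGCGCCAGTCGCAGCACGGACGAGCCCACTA
Hells, chr19:38930715-38930914, plus strand: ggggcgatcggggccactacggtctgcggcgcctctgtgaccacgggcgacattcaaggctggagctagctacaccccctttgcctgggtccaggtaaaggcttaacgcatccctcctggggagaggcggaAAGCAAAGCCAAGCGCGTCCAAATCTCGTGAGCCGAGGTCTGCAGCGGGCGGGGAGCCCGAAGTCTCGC
The Uhrf1 stretch held 30 CpGs in 250 bases, the Uhrf2 stretch 23 in 250, the Dnmt1 stretch 7 in 211 and the Hells stretch 17 in 200. In the 120 capitals of Uhrf1 there were 2 CCAAT boxes (CCAAT), 2 GC boxes (GGGCGG) and 1 copy of the NRF1 motif (CGCATGCG), each searched on both strands, and an E2F motif (TTTCGCGC) lay outside the capitals. The capitals of Uhrf2 and of Hells each held 1 GC box, and those of Dnmt1 held none of the 9 motifs searched. The stretches stop at annotated exons, so the capitals are 49 of the 138 shared bases at Dnmt1 and 69 of the 231 peak bases at Hells. The E2F motif of the Hells promoter, given below, lies in the part of that peak not printed. The Dnmt1 promoter of the RefSeq start at +6909 bp holds 1 copy of the NRF1 motif, which is not in the printed stretch. Whether that copy lies under the ATACseq peaks was not determined.

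Of the 10 genes, 2 had a WT ATACseq peak within 5 kb of the TSS, beside 30.2% of all protein-coding genes, and 3 had a Uhrf1hepKO ATACseq peak, beside 27.9%. H2A.Z peaks stood within 5 kb of the TSS of 6 genes in WT and of 5 in Uhrf1hepKO, beside 52.8% and 51.0% of all genes. Uhrf1 and Uhrf2 had peaks of both kinds in both livers, Hells had H2A.Z in both livers and an ATACseq peak in Uhrf1hepKO, and Dnmt3b and Tet2 had H2A.Z and no ATACseq peak in both livers, as did 18.3% of all genes. Dnmt1, Dnmt3a, Tet1 and Tet3 had no peak within 5 kb of the TSS in any list, which held for 42.3% of all genes. With the bodies of the genes included, 40 peaks were found, of which 10 were ATACseq peaks (4 WT, 6 Uhrf1hepKO) and 30 were H2A.Z peaks (16 WT, 14 Uhrf1hepKO).

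**Figure D1:**
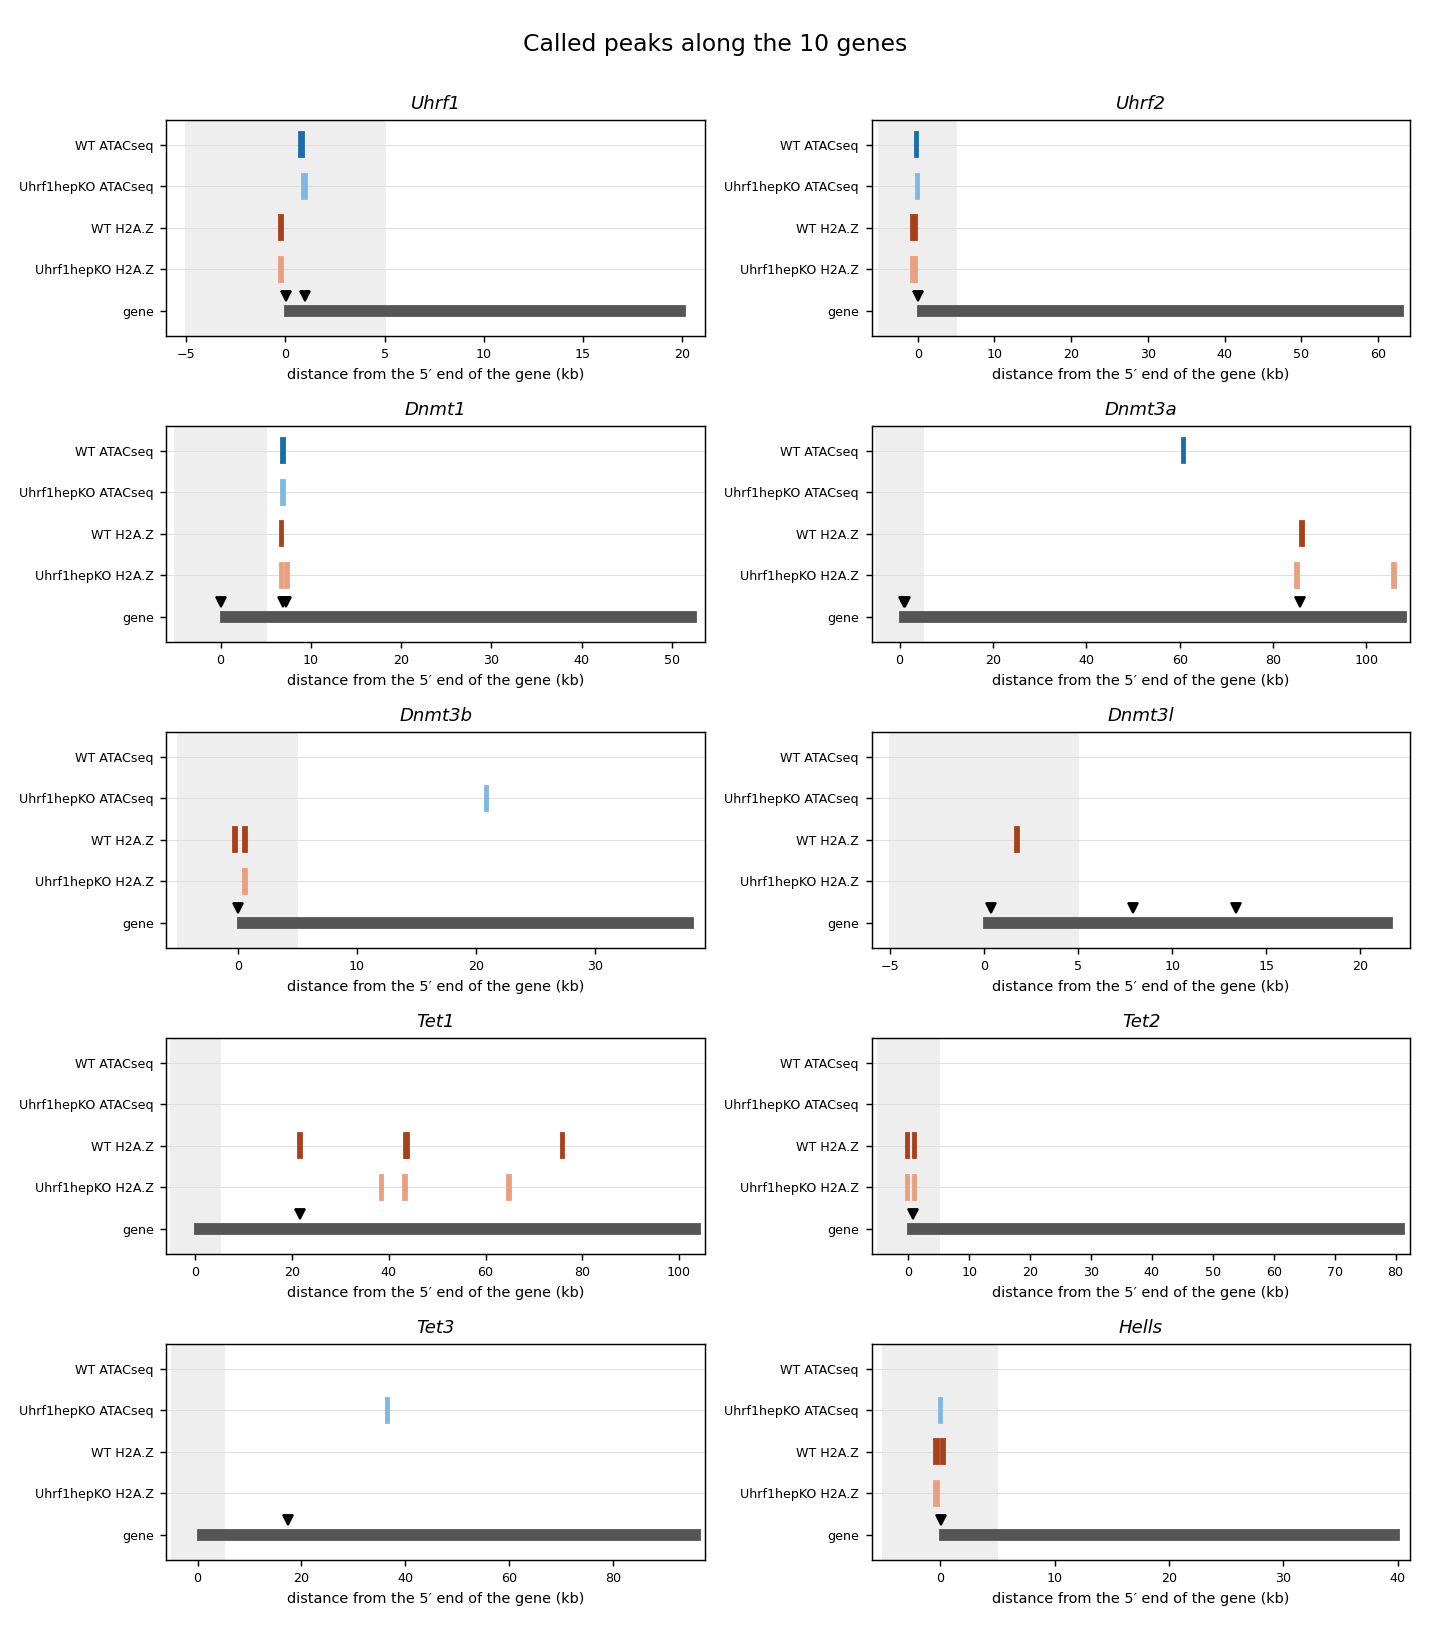
Called peaks along the 10 genes. The x axis is the distance from the 5′ end of the gene in kb in the direction of transcription, each row is 1 peak list (blue ATACseq, red-brown H2A.Z, darker for WT), the grey bar is the gene, the shaded band is the 5-kb window, triangles are RefSeq starts, and bars of narrow peaks are widened to be visible. Many of the 40 peaks crowd at the starts of Uhrf1, Uhrf2, Hells, Tet2 and Dnmt3b and the RefSeq starts inside Dnmt1. Those of Tet1 (4 WT and 3 Uhrf1hepKO) and Dnmt3a are spread inside the gene, and Tet3 has a single peak.

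Uhrf1 (ENSMUSG00000001228, chr17:56303321-56323486, plus strand) encodes the reader of hemimethylated CpGs that is removed from hepatocytes in the knockout. It had 1 ATACseq and 1 H2A.Z peak in each liver. The WT ATACseq peak, chr17:56303985-56304264, was 280 bp wide with a fold of 3.96 (percentile 33.5), and the Uhrf1hepKO peak, chr17:56304145-56304419, was 275 bp wide with a fold of 4.70 (percentile 71.3). They shared 120 bp, the capitals shown above. Both lay at the downstream RefSeq start, +992 bp from the 5′ end of the gene, with their midpoints at −189 bp (WT) and −31 bp (Uhrf1hepKO) from that start, in intron 1 of the representative transcript. That start has 78 CpGs within 500 bp, against 45 at the 5′ end of the gene. The H2A.Z peaks lay at the upstream start, with summits at −211 bp (WT, chr17:56303045-56303182) and −216 bp (Uhrf1hepKO, chr17:56303037-56303177) from the 5′ end of the gene. Their folds were 6.58 (percentile 74.3) and 6.04 (percentile 63.1), and each held 1 CpG. So the 2 marks stood apart at Uhrf1, with 803 bp between the edges of the ATACseq and H2A.Z peaks in WT and 968 bp in Uhrf1hepKO. The TSS of the neighbouring gene Arrdc5 lies 3035 bp from that of Uhrf1, so its window holds the same peaks.

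Uhrf2 (ENSMUSG00000024817, chr19:30030513-30093722, plus strand), the paralog, had a single RefSeq start at its 5′ end with 122 CpGs within 500 bp, the most of the 10 genes at the 5′ end. The WT ATACseq peak, chr19:30030205-30030498, was 294 bp wide with a fold of 4.42 (percentile 53.8) and its midpoint at −162 bp. The Uhrf1hepKO peak, chr19:30030395-30030530, was 136 bp wide with a fold of 5.21 (percentile 81.8) and its midpoint at −51 bp, and 104 bp were shared. H2A.Z formed 2 peaks upstream of the start in each liver. In WT they were chr19:30029779-30030038 and chr19:30030143-30030277, with summits at −647 and −299 bp and folds of 4.14 (percentile 20.3) and 5.36 (percentile 54.0), and in Uhrf1hepKO chr19:30029770-30030061 and chr19:30030157-30030278, with summits at −685 and −302 bp and folds of 4.18 (percentile 18.1) and 5.35 (percentile 48.9). The nearer H2A.Z peak overlapped the ATACseq peak in WT and was 117 bp from it in Uhrf1hepKO. No H2A.Z peak was called downstream of the accessible site in either liver.

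Dnmt1 (ENSMUSG00000004099, chr9:20907209-20959888, minus strand), the maintenance methyltransferase, had the highest ATACseq percentiles among the members. Its 5′ end in the annotation has 4 CpGs within 500 bp and no peak, while RefSeq also gives starts at +6909 and +7265 bp, with 53 and 66 CpGs. The WT ATACseq peak, chr9:20952891-20953033, was 143 bp wide with a fold of 7.89 (percentile 97.7), and the Uhrf1hepKO peak, chr9:20952888-20953028, was 141 bp wide with a fold of 6.13 (percentile 92.1). Their midpoints were 17 and 21 bp downstream of the RefSeq start at +6909 bp, and they shared 138 bp. H2A.Z stood directly upstream of this site in both livers, with summits at −139 bp (WT) and −129 bp (Uhrf1hepKO) from that start, folds of 7.07 (percentile 79.7) and 8.83 (percentile 90.2), and 20 and 11 bp to the ATACseq peak. A further H2A.Z peak downstream of it, chr9:20952456-20952583, was called in Uhrf1hepKO with a fold of 3.72, at percentile 8.1 of its list, and had no WT counterpart.

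Hells (ENSMUSG00000025001, chr19:38930915-38971051, plus strand), the remodeler, was the member with a TSS ATACseq peak in 1 liver. The Uhrf1hepKO peak, chr19:38930846-38931076, was 231 bp wide with a fold of 4.74 (percentile 71.9), had its midpoint at +46 bp and held 34 CpGs, 14.7 per 100 bp, the densest of all 40 peaks. The nearest WT ATACseq peak was 328869 bp from the TSS. H2A.Z at the same start was alike in position in both livers, chr19:38930341-38930811 in WT with a fold of 8.04 (percentile 87.5) and chr19:38930345-38930811 in Uhrf1hepKO with a fold of 8.37 (percentile 87.7), so that 467 bp were shared. The edge of this H2A.Z peak was 35 bp from the Uhrf1hepKO ATACseq peak. A smaller H2A.Z peak with its summit at +297 bp (chr19:38931060-38931239, fold 3.90, percentile 14.1) was called in WT alone, on the other side of the start. Genes with a Uhrf1hepKO and no WT ATACseq peak within 5 kb of the TSS were 1 of 10 members, Hells, beside 4.85% of all genes, and the opposite change was seen in 0 of 10, beside 7.19%.

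**Figure D2:**
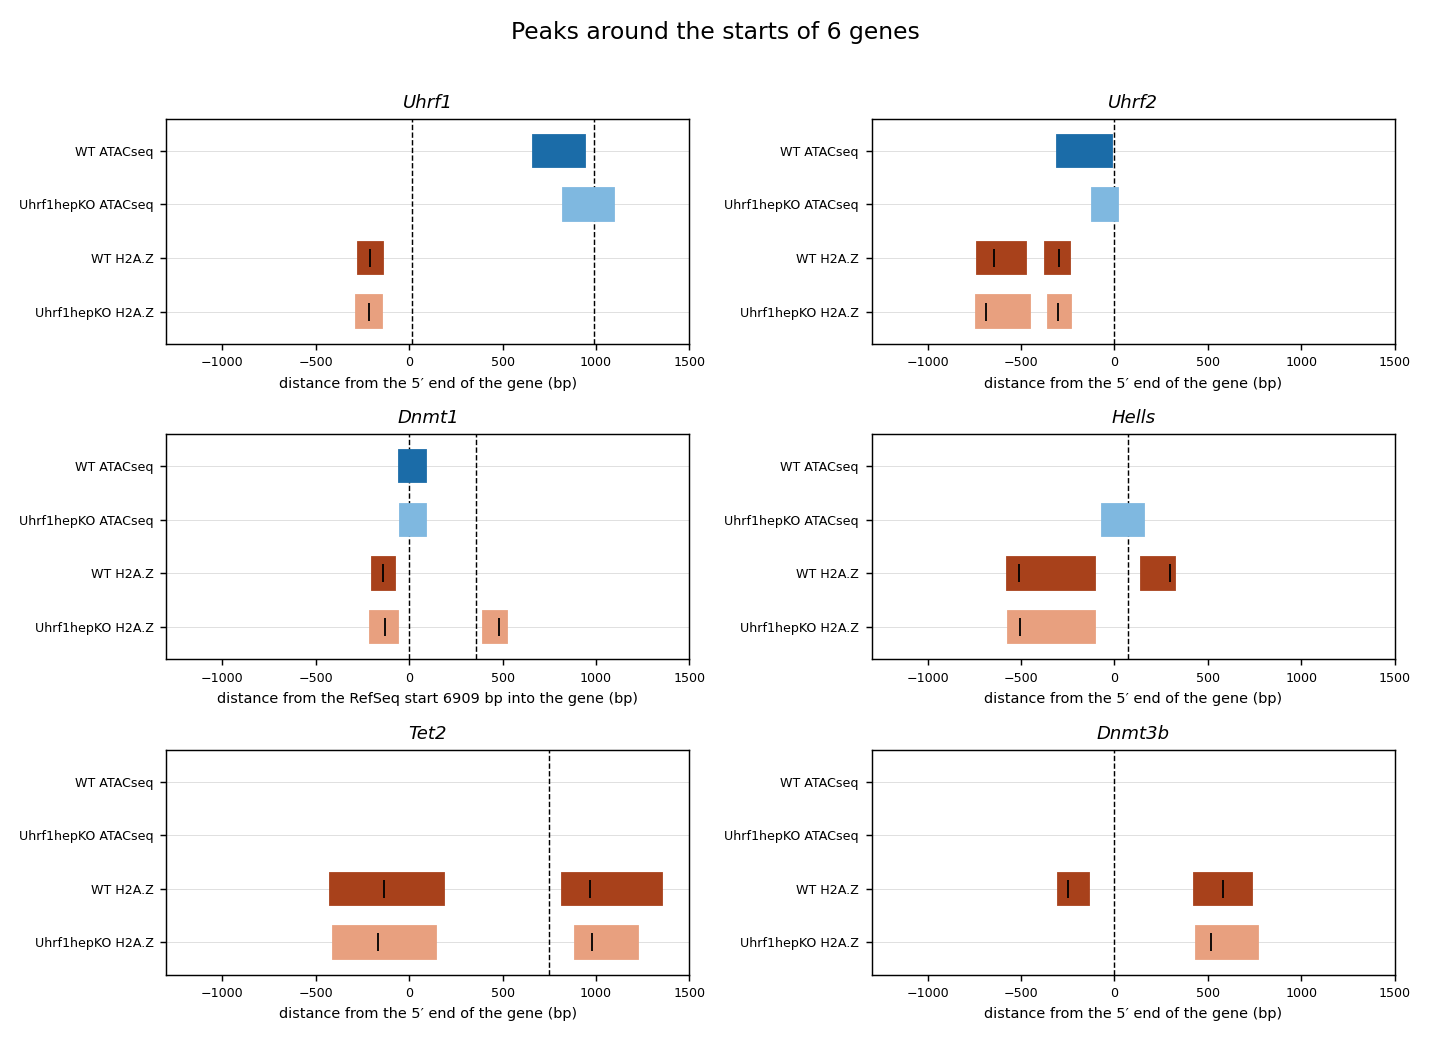
Peaks around the starts of 6 genes. The x axis is the distance in bp from the 5′ end of the gene, or for Dnmt1 from the RefSeq start 6909 bp into the gene, boxes are peaks drawn to scale, black ticks are H2A.Z summits and dashed lines are RefSeq starts. The ATACseq boxes of both livers lie over the start of Dnmt1, and over or directly upstream of the start of Uhrf2 and the downstream start of Uhrf1, Hells has an ATACseq box in Uhrf1hepKO only, and Tet2 and Dnmt3b have H2A.Z boxes alone.

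The methyltransferases that act on unmethylated DNA and their cofactor had no ATACseq peak at a RefSeq start in either liver. Dnmt3a (ENSMUSG00000020661, chr12:3806007-3914443, plus strand) had none of either kind within 5 kb of the TSS. RefSeq gives starts at +973 and +1153 bp, with 155 and 165 CpGs within 500 bp, the highest numbers among the members, and at +85737 bp, with 49. H2A.Z was found beside the last of these, in WT at chr12:3892157-3892252 (fold 4.63, percentile 34.6, summit +439 bp from that start) and in Uhrf1hepKO at chr12:3891098-3891203 (fold 4.65, percentile 30.4, summit −564 bp). These peaks did not overlap and were 954 bp apart. A second Uhrf1hepKO H2A.Z peak of the same fold stood over exon 23 (chr12:3911865-3911980). A WT ATACseq peak, chr12:3866800-3866929 (fold 4.15, percentile 43.1), lay +60857 bp into the gene and 673 bp from the start of another annotated transcript, with no Uhrf1hepKO counterpart.

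Dnmt3b (ENSMUSG00000027478, chr2:153649450-153687730, plus strand) has 102 CpGs within 500 bp of its 5′ end and had H2A.Z there in both livers. A peak downstream of the start was shared over 298 bp, with a fold of 4.48 (percentile 30.9, summit +584 bp, chr2:153649876-153650186) in WT and 6.97 (percentile 75.8, summit +519 bp, chr2:153649889-153650217) in Uhrf1hepKO. A second peak upstream, chr2:153649147-153649314 (fold 3.66, percentile 8.9, summit −249 bp), was called in WT alone. The start of Dnmt3bos, annotated beside Dnmt3b, lies 252 bp from the WT summit of the shared peak, so this peak cannot be given to a single gene. Its ATACseq peak, chr2:153670271-153670384 in exon 10, was called in Uhrf1hepKO with a fold of 3.37 (percentile 10.6). With a −log10 q-value of 1.11, it was the only member peak lost when a q-value of at most 0.01 was asked for.

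Dnmt3l (ENSMUSG00000000730, chr10:78041947-78063622, plus strand), which acts mainly in germ cells, had 16 CpGs within 500 bp of its 5′ end and 1 peak in all 4 lists. It was a WT H2A.Z peak, chr10:78043642-78043736, 95 bp wide with a fold of 5.12 (percentile 48.1). Its summit was +1748 bp from the 5′ end of Dnmt3l and 85 bp from the TSS of Aire, an overlapping neighbour. Dnmt3l was the member with TSS H2A.Z in WT and not in Uhrf1hepKO, 1 of 10 beside 3.95% of all genes, and the opposite was seen in 0 of 10, beside 2.19%.

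The 3 TET genes, whose products oxidize methylcytosine, differed in where peaks stood. Tet2 (ENSMUSG00000040943, chr3:133463679-133545139, minus strand) had 61 CpGs within 500 bp of its 5′ end and 105 at the RefSeq start +749 bp from it. It had H2A.Z on both sides of the RefSeq start in both livers and no ATACseq peak, the nearest being 453186 bp (WT) and 34820 bp (Uhrf1hepKO) from the TSS. The upstream H2A.Z peak, chr3:133544955-133545563 in WT and chr3:133544995-133545549 in Uhrf1hepKO, was 609 and 555 bp wide with folds of 5.12 (percentile 48.1) and 4.42 (percentile 24.1). The downstream peak, chr3:133543783-133544321 and chr3:133543915-133544253, was 539 and 339 bp wide with folds of 9.26 (percentile 93.5) and 7.44 (percentile 80.5). The WT fold was the highest of the 30 H2A.Z peaks. The start of the gene Gm42567 lies 178 bp from the WT summit of the upstream peak.

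Tet1 (ENSMUSG00000047146, chr10:62804570-62908996, minus strand) had no ATACseq peak and 4 WT and 3 Uhrf1hepKO H2A.Z peaks, all inside the gene. Its 5′ end has 7 CpGs within 500 bp, and its RefSeq start, +21672 bp from there, has 59. A WT peak stood at that start, chr10:62887302-62887396 (fold 4.14, percentile 20.3, summit −27 bp), and none was called there in Uhrf1hepKO. A site in intron 2, +43452 bp into the gene in WT and beside the start of another annotated transcript, was shared, with a fold of 5.36 in WT (percentile 54.0, chr10:62865490-62865598) and 3.72 in Uhrf1hepKO (percentile 8.1, chr10:62865532-62865820) and an overlap of 67 bp. The other 2 WT peaks had folds of 5.12 (chr10:62865085-62865399) and 4.87 (chr10:62832959-62833253). The other 2 Uhrf1hepKO peaks had folds of 4.42 (chr10:62870487-62870594) and 3.25 (chr10:62844102-62844229), the latter at percentile 2.54 of its list. Tet3 (ENSMUSG00000034832, chr6:83362373-83459084, minus strand), with 8 CpGs within 500 bp of its 5′ end and 56 at its RefSeq start at +17406 bp, had no H2A.Z peak in either liver. Its single peak was a Uhrf1hepKO ATACseq peak in intron 2, chr6:83422445-83422559 (fold 3.92, percentile 44.5), which held 0 CpGs.

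**Figure D3:**
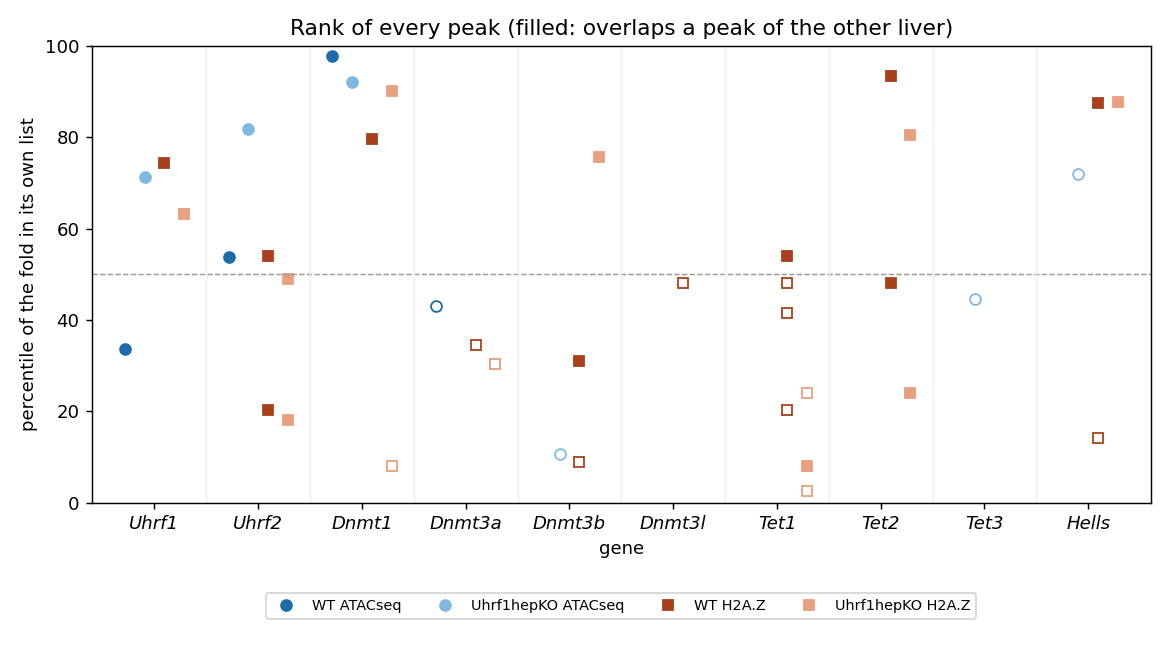
Percentile of the fold of every peak in its own list (y axis, percent) for the 10 genes (x axis). Circles are ATACseq and squares H2A.Z peaks, darker for WT, filled where a peak of the other liver overlaps, and the 2 Uhrf1hepKO H2A.Z peaks of Dnmt3a coincide at 30.4. All peaks above percentile 75 overlap a peak of the other liver, from Uhrf2, Dnmt1, Dnmt3b, Tet2 and Hells.

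Peaks of one liver were compared with those of the other by overlap. Of the members' WT ATACseq peaks, 3 of 4 overlapped a Uhrf1hepKO peak, beside 61.3% of all WT ATACseq peaks, and 3 of 6 did so in the other direction, beside 60.3%. For H2A.Z these were 9 of 16 WT peaks, beside 70.0%, and 9 of 14 Uhrf1hepKO peaks, beside 75.6%. Within 1 kb of a start of any annotated transcript of the gene, 24 of the members' 34 peaks overlapped one of the other liver. These were 3 of 4 WT and 3 of 5 Uhrf1hepKO ATACseq peaks, beside 73.7% and 80.4% of all such peaks of protein-coding genes, and 9 of 14 WT and 9 of 11 Uhrf1hepKO H2A.Z peaks, beside 80.8% and 87.1%. Farther away were 6 peaks, of which 0 overlapped. They were 1 Uhrf1hepKO ATACseq peak, where 38.9% of all such peaks did, 2 WT H2A.Z peaks, where 63.0% did, and 3 Uhrf1hepKO H2A.Z peaks, where 69.0% did, and 6 peaks are too few to set apart from these shares.

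The H2A.Z lists allow the reads over a summit to be recovered as a whole number, since the fold is the reads plus 1 over the background plus 1. The background was 3.10 reads in WT and 3.30 in Uhrf1hepKO, and every one of the 30 H2A.Z peaks gave 1 whole number. At Uhrf1, 26 WT reads (95% exact Poisson interval 17.0 to 38.1) stood beside 25 Uhrf1hepKO reads (16.2 to 36.9), and scaled by the backgrounds the Uhrf1hepKO to WT ratio was 0.903 (0.50 to 1.63). At the 2 Uhrf2 peaks, 16 and 21 WT reads stood beside 17 and 22, with ratios of 0.998 (0.474 to 2.11) and 0.984 (0.516 to 1.88). The counts of these 2 genes were thus nearly equal in the livers. At Dnmt1 28 reads in WT and 37 in Uhrf1hepKO gave 1.24 (0.739 to 2.11), and at Dnmt3b 20 and 29 gave 1.36 (0.744 to 2.54), the highest of the 9 ratios. The WT summit of Dnmt3b had a local background of 3.69 reads, above that of the genome, and its fold is against that local value. At Hells 32 and 35 reads gave 1.03 (0.618 to 1.71). The TET genes had the 3 lowest ratios. They were 0.845 (0.422 to 1.68) for 20 and 18 reads at the upstream Tet2 peak, 0.787 (0.472 to 1.30) for 37 and 31 reads at the downstream one, and 0.671 (0.322 to 1.37) for 21 and 15 reads at Tet1. All 9 intervals hold 1, so no difference was detectable at this depth. Over 32815 shared pairs of the genome with reads the median ratio was 1.01, with 0.726 and 1.47 as the 5th and 95th percentiles. The intervals cover counting error only and leave out the spread between mice. H2A.Z peaks without a counterpart had 14 to 20 reads in WT and 13 to 19 in Uhrf1hepKO, between the fewest reads of any called peak (11 and 12) and the median of the list (21 and 23).

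**Figure D4:**
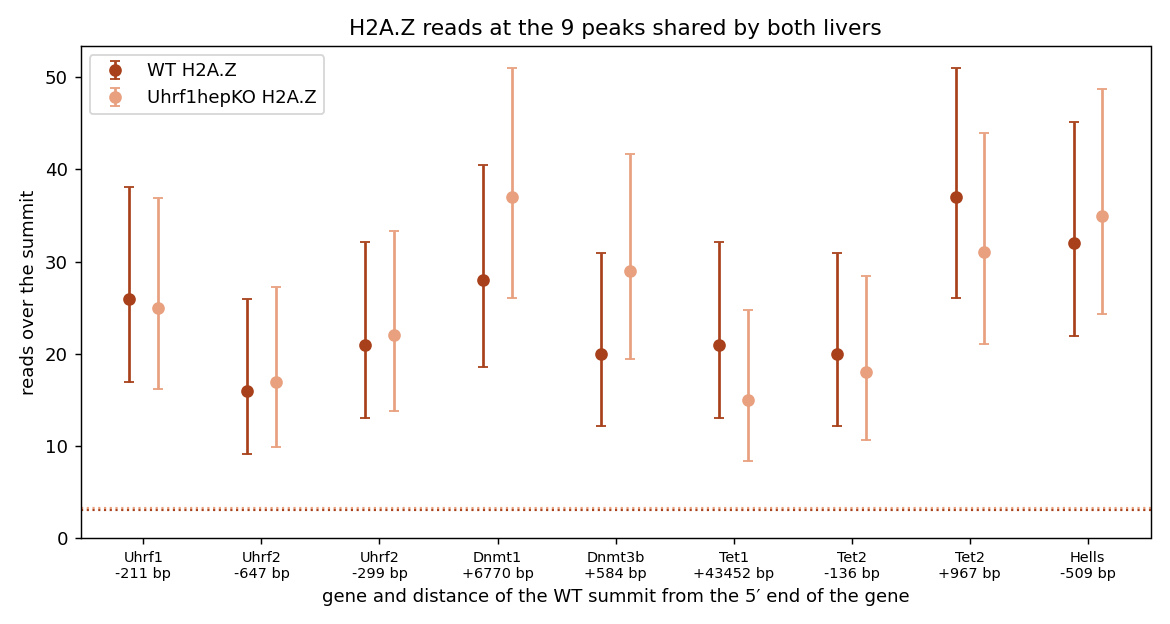
Reads over the summit (y axis) at the 9 H2A.Z peaks shared by both livers (x axis, gene and distance of the WT summit from its 5′ end). Points are single libraries, bars are exact 95% Poisson intervals and dotted lines the genome background of 3.10 (WT) and 3.30 (Uhrf1hepKO) reads. The intervals of the 2 livers overlap at all 9 peaks.

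Accessible sites were next compared with H2A.Z of the same liver. Of the members with a TSS ATACseq peak, 1 of 2 had H2A.Z within 500 bp of its edge in WT, namely Uhrf2, where 88.8% of all genes with such a peak did. In Uhrf1hepKO 2 of 3 did, Uhrf2 and Hells, beside 86.5% of all genes. Uhrf1 had none within 500 bp in either liver, with the distances of 803 and 968 bp given above. Wherever H2A.Z stood beside an accessible site of Uhrf2, Hells or Dnmt1, a peak lay on the upstream side, and a downstream peak beside the same site was called at Dnmt1 in Uhrf1hepKO only. The 3 ATACseq peaks in the bodies of Dnmt3a, Dnmt3b and Tet3 had no H2A.Z of the same liver nearby, with 25228 bp to the nearest in Dnmt3a and 20054 bp in Dnmt3b, and none in Tet3.

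The peaks were also set beside the CpGs and motifs of the sequence, which the rule for the members did not use. The 5 members Uhrf1, Uhrf2, Dnmt3b, Tet2 and Hells had more CpGs within 500 bp of the 5′ end than the median protein-coding gene, which had 41 (quartiles 12 and 69), and these 5 were also the members with TSS H2A.Z in both livers. Of all genes above that median, 72.2% had TSS H2A.Z in both livers, and of the other genes 25.9%. The other 5 members had 4 to 35 CpGs at the 5′ end, but Dnmt1, Dnmt3a, Tet1 and Tet3 each have a RefSeq start above 41, as given with each gene. With RefSeq starts as the TSS, Dnmt1 and Dnmt3a had H2A.Z in both livers too, Tet1 in WT only and Tet3 in neither. The H2A.Z of Dnmt3a lay by its start at +85737 bp, with 49 CpGs. No peak was called within 5 kb of its starts with 155 and 165 CpGs. Peaks within 1 kb of a transcript start held 0.709 to 14.7 CpGs per 100 bp and the 6 farther ones 0 to 5.26. Within the WT H2A.Z list the medians of near and far peaks were 3.92 and 3.99, and within the Uhrf1hepKO H2A.Z list 4.50 and 0, with 2 and 3 far peaks. At Uhrf1, the ATACseq peak held 11.4 CpGs per 100 bp in WT and the H2A.Z peak 0.725. All 10 genes had at least 1 GC box in a RefSeq promoter (250 bases before to 50 after a start), in 14 of their 17 promoters, where 35.7% of 32851 mouse promoters have one. This and the shares below are not matched for CpGs, of which all promoters held a median of 7 and the 17 held 2 to 57. The GC box letters hold a CpG themselves. The Dnmt3a promoters at +973 and +1153 bp overlap and are counted apart. CCAAT boxes were in 5 promoters, of Uhrf1, Dnmt1 and Tet3 (37.4% of all). The NRF1 letters were in 3 promoters, of Uhrf1 and Dnmt1 (1.87% of all), and an E2F motif (TTTCCCGC, TTTGGCGC, TTTCGCGC or TTTGCCGC) in 3, of Uhrf1, Dnmt1 and Hells (2.26% of all). The E-box (CACGTG) was in 2 promoters, of Dnmt3a and Dnmt3l (7.15% of all). The ETS (CCGGAAG), CREB (TGACGTCA) and YY1 (AAGATGGC) letters were in 0 of the 17, where 8.86%, 1.79% and 2.75% of all promoters have them. A box of TATAAA was in 0 of the 17 as well, where 13.6% of all promoters have it. Some of these letters overlap each other, and a match of letters is a description of the sequence, not a bound site.

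**Figure D5:**
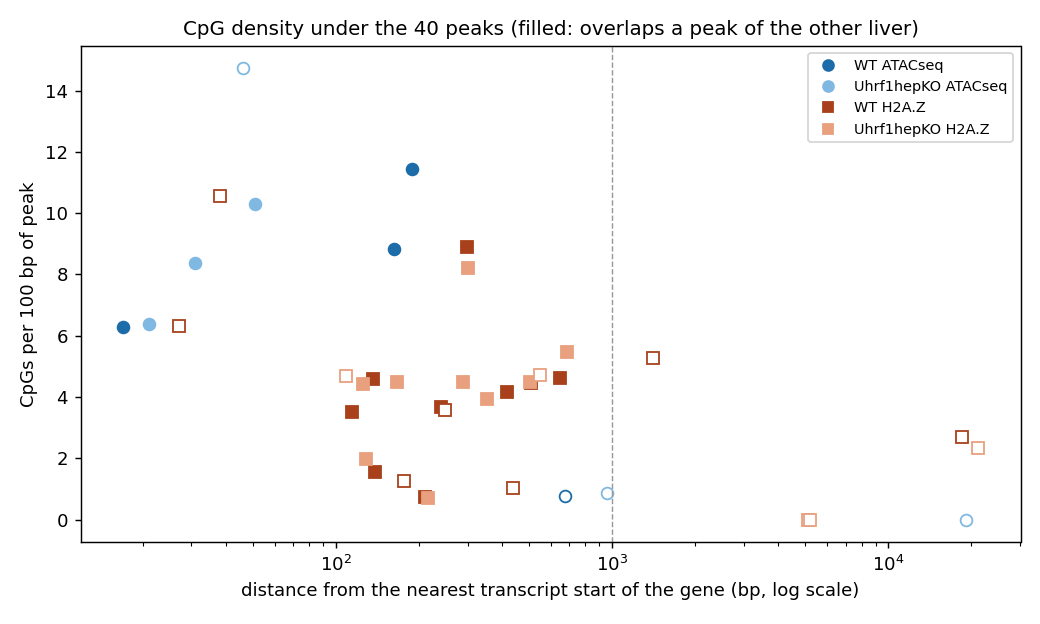
CpGs per 100 bp of each of the 40 peaks (y axis) against the distance from the nearest transcript start of the gene in bp (x axis, log scale, dashed line at 1 kb). Circles are ATACseq and squares H2A.Z peaks, darker for WT, filled where a peak of the other liver overlaps. The filled points lie within 1 kb of a start, and the highest density, 14.7, is the Hells ATACseq peak of Uhrf1hepKO.

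Of 36 other genes of the DNA methylation pathway, 16 had a TSS ATACseq peak in WT and 16 in Uhrf1hepKO, beside 30.2% and 27.9% of all genes, and 29 and 26 had TSS H2A.Z, beside 52.8% and 51.0%. Among 12 genes linked to maintenance methylation, such as Pcna, the sliding clamp of replication, 2 had an ATACseq peak in each liver. They were Pcna and Cdca7 in WT and Pcna and Dppa3 in Uhrf1hepKO, and the same 10 of the 12 had H2A.Z in both livers. Among 8 genes of demethylation and repair, such as Tdg, the glycosylase that removes oxidized methylcytosine, the same 6 had an ATACseq peak in both livers, and 8 in WT and 7 in Uhrf1hepKO had H2A.Z. Of 8 genes of methyl-CpG binding protein families, not all of whose members need bind methylated CpGs, the same 3 had an ATACseq peak in both livers. H2A.Z was called for 6 in WT and 5 in Uhrf1hepKO. Of 6 genes of the methyl donor cycle, 3 in WT and 4 in Uhrf1hepKO had an ATACseq peak and the same 3 had H2A.Z in both livers. Idh1 and Idh2, which make 2-oxoglutarate, the cosubstrate of the TET enzymes, both had peaks of both kinds in WT, and Idh1 alone did so in Uhrf1hepKO. A TSS ATACseq peak was called in Uhrf1hepKO only for Dppa3 (fold 4.17), Mat1a (4.001), which makes the methyl donor S-adenosylmethionine in the liver, and Ahcy (3.87), and in WT only for Gnmt (3.69), Idh2 (3.66) and Cdca7 (3.64), a partner of HELLS. TSS H2A.Z was called in WT only for Idh2 (5.36), Mbd3 (4.63) and Gadd45b (4.14), and in Uhrf1hepKO only for 0 of the 36. Such calls in 1 liver were made for 4.85% (ATACseq, Uhrf1hepKO only), 7.19% (ATACseq, WT only), 3.95% (H2A.Z, WT only) and 2.19% (H2A.Z, Uhrf1hepKO only) of all genes.

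By number of peaks in the 5-kb window, 616 genes had the arrangement of Uhrf1, 1 peak in each of the 4 lists. By the sum over the 4 lists of the difference in percentile of the fold, the nearest were Arrdc5, whose window holds the same peaks (0), Psmc3ip (19.8 percentile points) and Gm29427 (21.6).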

How the data were processed

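ATACseq and H2A.Z ChIPseq were each done on 1 WT and 1 Uhrf1hepKO liver. Reads were mapped by the authors with BWA-MEM against GRCm38.p4, PICARD was used to sort and clean the alignments, and MACS2 called peaks in each library alone, with p-values set at 0.05 in their methods, in broad mode with the option for paired-end alignments for ATACseq, whose reads are described as single-end. The deposited q-values reach 0.0997 (WT) and 0.0993 (Uhrf1hepKO) for ATACseq and 0.0500 and 0.0489 for H2A.Z at most, and no list extends beyond these. The mode of the H2A.Z calls, a control library and the version of MACS2 are not given in the sources used here. The submitters' processing notes also name FastQC 0.11.5 and Trimmomatic. Each deposited peak has a display score, a fold (a ratio of pileup to local background, averaged over the region for ATACseq and taken at the summit for H2A.Z), −log10 p- and q-values, and for H2A.Z the deposited position of the summit. The fold is not scaled between libraries. ATACseq pileups were not recovered, and the total reads of the libraries are not in these files.

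Only peaks on the autosomes (1 to 19), X and Y entered. Genes came from GENCODE vM21, and starts, promoters and sequence from RefSeq in the same build, GRCm38 (17 promoters matched the 10 genes). Positions are 1-based. Overlaps needed 1 bp. A peak was given by its summit (H2A.Z) or midpoint (ATACseq), and H2A.Z was beside an ATACseq peak within 500 bp of its edge. H2A.Z reads were solved from the fold and the deposited p-value, with a tolerance of 0.0001 in −log10 p. The solution for summits above the genome background, needed for 1 member peak, was added after the lists were examined. In simulated data, overlaps matched a comparison base by base in 500 of 500 regions, and reads came back at 2000 of 2000 summits. Those summits were simulated from the same formula of fold and p-value, so they check the solution and not the formula. Scripts ran in Python 3.11.15 with pandas 2.3.3 and numpy 2.4.6, intervals came from scipy 1.17.1 and plots from matplotlib 3.10.9.

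All 10 genes are named with every peak. Of the other pathway genes, those with a TSS peak in 1 liver were named, at most 6 per assay by fold, and for Uhrf1 the 3 genes most like it. The members, lists and motifs were chosen with earlier results of these data known. With 1 library per condition, the spread between mice is unknown and no test was made. Other windows, starts, thresholds, overlaps and equal numbers of peaks were tried as alternatives.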

Additional observations from a re-analysis of the deposited data

How the results depend on the processing

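Under the alternatives, 76 values stayed within 1.5 times the reported one and 18 moved. A 500-bp window left 1 gene with a WT ATACseq peak (Uhrf2), and windows of 500 bp and 1 kb left 0 genes with H2A.Z in WT only, in place of 1 (Dnmt3l). With the start of any annotated transcript as the TSS, 4 members had a WT and 5 a Uhrf1hepKO ATACseq peak (32.9% and 30.7% of all genes) and 9 had WT and 8 Uhrf1hepKO H2A.Z (56.3% and 54.4%), while 1 had ATACseq in WT only (Dnmt3a, 7.88% of all genes) and 2 in Uhrf1hepKO only (Dnmt3b and Hells, 5.71%). With any RefSeq start, chosen after seeing the data, 9 members had WT and 7 Uhrf1hepKO H2A.Z (42.0% and 40.5% of all genes), and 2 had it in WT only (Dnmt3l and Tet1, 3.09%). In these RefSeq shares, genes without a matched RefSeq start count as having no peak, while every member has such a start. The shares are therefore too low to set beside the members. Peaks at or above the median fold left 1 gene with a WT ATACseq peak (Uhrf2), 2 with ATACseq in Uhrf1hepKO only (Uhrf1 and Hells) and 1 with H2A.Z in Uhrf1hepKO only (Dnmt3b). They left 2 WT ATACseq, 9 WT H2A.Z and 6 Uhrf1hepKO H2A.Z peaks, and 5 of the 9 WT H2A.Z peaks had a counterpart. An overlap of 50% of both peaks left 1 of 4 WT ATACseq peaks with a counterpart (Dnmt1), and with H2A.Z counted within 1 kb, both members with a WT TSS ATACseq peak (2 genes) had it. These changes follow from the settings themselves, which move the window, the start, the peaks kept or the overlap asked for. Hells kept its Uhrf1hepKO TSS ATACseq peak under every alternative tried for that comparison. None of these could bring in a WT peak, since the nearest lay 328869 bp from the TSS, so they do not test its absence. A site outside a list had too few reads to be called, which is not an absence of reads, and a summit of 13 to 37 reads leaves intervals too wide to show small differences. No paired analysis was possible because there is 1 library per condition.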
